A study of Mus musculus with 6 samples.

Results

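Matricellular proteins are secreted into the extracellular matrix, where they act on cells more than they build the scaffold. The 10 genes described here, Sparc, Sparcl1, Tgfbi, Postn, Thbs1, Thbs2, Tnc, Spp1, Ctgf and Cyr61, were taken by gene name from the array design and make up 10 of the 36163 distinct gene names on the array, with 12 probes. They were chosen by a rule that names the contrast of LSC GFP+ with LSC GFP- cells, and with measured values of that contrast known. Their differences between the populations are therefore a description. Standard errors and intervals come from the limma fit, which draws each probe's spread between samples toward that of all probes tested. No p-value is given for a member, and counts past a threshold are printed with nothing read from them. RNA came from prostate cells of postnatal day 6 males of the FVB/N line Tg 11.5kb-GFP, in which 11.5 kb of the promoter of s-SHIP, a short product of the SHIP1 gene, drives GFP. Both populations were depleted of Ter119, CD31 and CD45 positive cells (Lin-) and sorted as Sca-1+ and CD49f+, abbreviated LSC. They differed in the sort for GFP, which gave 3 independent LSC GFP+ samples and 3 independent LSC GFP- samples, each on its own array. The same promoter is also active in some vascular smooth muscle cells. By the study's flow cytometry these brightly GFP-positive cells carry little or no Sca-1 and CD49f. How many of them, or of muscle cells without GFP, remained after the LSC sort was not tested here. The study describes the LSC cells as CD24+ epithelium.

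Most matricellular proteins bind collagens, other matrix proteins or integrins, and several bind growth factors or release them from latent stores. SPARC and SPARCL1 (hevin) bind collagen. TGFBI and periostin share fasciclin domains and bind integrins, and TGFBI takes its name from its induction by TGF-beta. Thrombospondins 1 and 2 bind the receptors CD36 and CD47, and thrombospondin 1 can activate latent TGF-beta. CTGF and CYR61, today also called CCN2 and CCN1, are secreted integrin ligands and commonly used readouts of YAP and TEAD activity.

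The members on which the results turn were each read by a probe of 60 bases, of which bases 1 to 30 are shown as the array design gives them, 5′ to 3′. They are printed so that it is clear which stretch of each transcript was measured.
Sparcl1: agtgagatactgctcttttgagataaatat
Tgfbi: aaatgtgaatcaagcagtccggcattctgg
Sparc: ggctgttccgcctggggataaggtgctaac
Thbs1: gcctgtagagttagtatttctggtttttat
Cyr61: aagattagttgggccaagtgaaagccctgc
By the array design the Sparcl1 probe lies at chr5:104508149-104508208 on the minus strand of mm9 and the Tgfbi probe at chr13:56740460-56740519 on the plus strand. The brighter of the Sparc probes lies at chr11:55208939-55208998 (minus), the Thbs1 probe at chr2:117952585-117952644 (plus) and the Cyr61 probe at chr3:145310187-145310246 (minus). The exon or untranslated part that each probe falls in was not analysed here. The probe of Thbs2 and the brighter probe of Tnc cover 1264 and 764 bases of the genome with their 60 bases, so each crosses a splice junction.

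Every level below is a log2 signal relative to the 75th percentile of the same array, so 0 is the level of that percentile, and a difference is LSC GFP+ minus LSC GFP-. The 6 arrays came from the same slide and scan, the scanner software marked 36656 to 42128 of 55681 probes per array as well above background, and no spot was saturated. At an unadjusted p under 0.05 in limma, LSC GFP+ cells had the higher level at 1250 of the 37005 probes tested and the lower at 1675, or 3.38% and 4.53%, and 1 probe passed after Benjamini-Hochberg adjustment. Scaling by the array median turned that split to 1471 higher and 1299 lower. Sca-1 (Ly6a) and CD49f (Itga6), on which the cells were sorted, and all 10 basal epithelial markers examined were well above background on every array. So were all 10 luminal, 11 of 12 stromal fibroblast and 11 of 12 smooth muscle and pericyte markers. Inpp5d, the SHIP1 gene, was read by 1 probe, which was well above background on no array. Whether that probe reads the s-SHIP transcript was not tested.

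Sparcl1 and Tgfbi had the largest differences of the members tested and both were lower in LSC GFP+ cells. The processed signal of Sparcl1 was 461, 302 and 449 on the LSC GFP+ arrays and 3686, 1524 and 2678 on the LSC GFP- arrays, in the order of replicates 1, 2 and 3. Its log2 level was -0.13 ± 0.51 (SD, n = 3) against 2.59 ± 0.65 (SD, n = 3). The populations did not overlap, and the lowest LSC GFP- array stood well over the highest LSC GFP+ array. The level was 6.59-fold lower in LSC GFP+ cells, with a 95% interval of 3.57 to 12.2 from the limma fit, and the log2 difference was -2.72 with a standard error of 0.38. Within replicates 1, 2 and 3 the log2 difference was -2.99, -2.62 and -2.55. In sorted bulk RNA, fewer cells of a type and less RNA per cell cannot be told apart, and this holds for every value below.

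Tgfbi, which encodes the TGF-beta induced protein, read 49.4, 58.4 and 54.1 in LSC GFP+ cells and 430, 170 and 327 in LSC GFP- cells. The LSC GFP+ arrays were close to each other, at -3.01 ± 0.08 (SD, n = 3) on the log2 scale, whereas the LSC GFP- arrays spread more, at -0.51 ± 0.69 (SD, n = 3). The populations did not overlap. The level was 5.67-fold lower in LSC GFP+ cells, with a 95% interval of 3.31 to 9.71, a log2 difference of -2.50 and a standard error of 0.34. Within replicates the log2 difference was -3.11, -1.82 and -2.57. With normexp background correction, which lifts dim signals by an offset of 50, the log2 difference was -1.58.

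Sparc, the collagen-binding relative of Sparcl1, was read by a pair of probes. The brighter one read 1892, 2563 and 3688 in LSC GFP+ cells and 5388, 3313 and 6979 in LSC GFP- cells. The LSC GFP+ array of replicate 3 lay above the LSC GFP- array of replicate 2, so the populations overlapped, although LSC GFP- was the higher within each replicate number. The log2 levels were 2.59 ± 0.50 and 3.61 ± 0.53 (SD, n = 3 each), and Sparc was 2.02-fold lower in LSC GFP+ cells, with a 95% interval of 1.16 to 3.52. The log2 difference was -1.02 with a standard error of 0.35, and the dimmer probe gave -0.91 with a standard error of 0.30. It ranged from -1.31 to -0.79 as arrays were left out in turn.

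**Figure D1:**
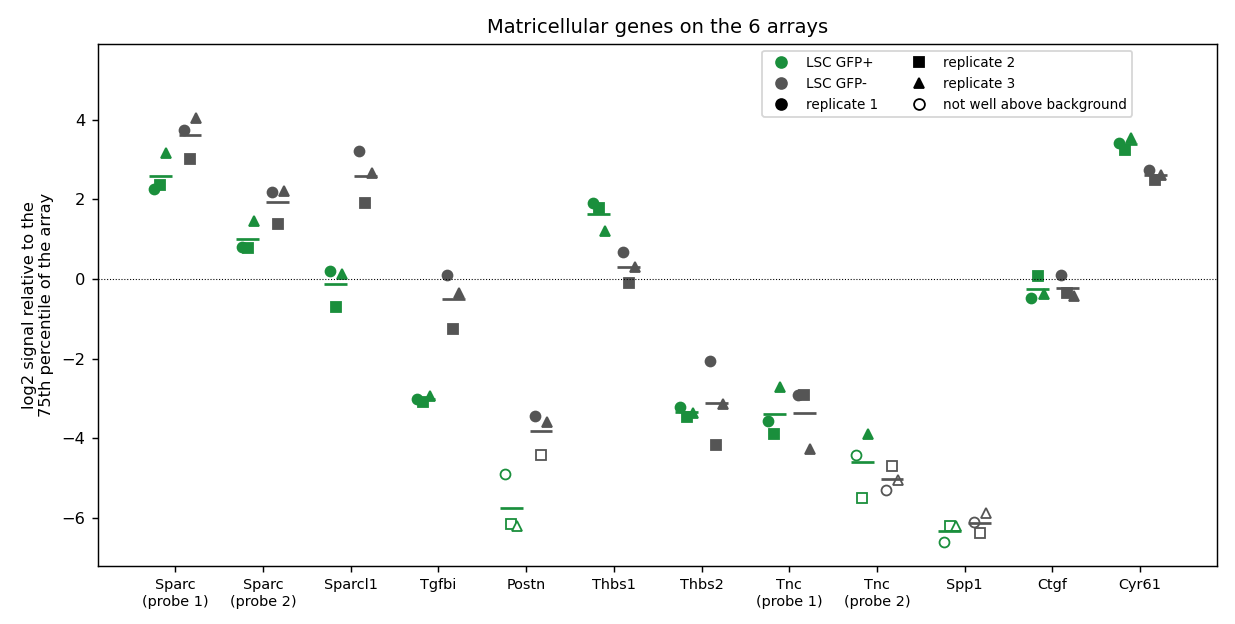
Log2 signal of the 12 probes of the 10 matricellular genes relative to the 75th percentile of each array, with 1 point per array, a symbol for each replicate number and a bar for the mean of each population. Open points were not well above background. Sparcl1 and Tgfbi are lower on every LSC GFP+ array than on any LSC GFP- array, Thbs1 and Cyr61 are higher on every LSC GFP+ array, and Spp1 is open throughout.

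Postn, which encodes periostin, a fasciclin protein like TGFBI, was near the limit of detection. It was well above background on 2 of the LSC GFP- arrays, replicates 1 and 3, and on none of the LSC GFP+ arrays. Its signals were 13.4, 6.96 and 5.60 in LSC GFP+ cells and 36.9, 19.0 and 34.8 in LSC GFP- cells. Postn was therefore given only a bound and was at least 1.52-fold higher in LSC GFP- cells. The bound set the mean of the LSC GFP- arrays, the dim one at its own value, against the lowest signal well above background on each LSC GFP+ array, or the probe's own where that was higher. Postn did not enter the test, because neither population had it well above background on all its 3 arrays.

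Thbs1 and Cyr61 ran the other way. Thbs1, the gene of thrombospondin 1, read 1489, 1705 and 947 in LSC GFP+ cells and 641, 380 and 517 in LSC GFP- cells, with no overlap. Its log2 levels were 1.63 ± 0.38 and 0.29 ± 0.39 (SD, n = 3 each). It was 2.52-fold higher in LSC GFP+ cells, with a 95% interval of 1.60 to 3.97, and the log2 difference of 1.34 had a standard error of 0.28. Within replicates the log2 difference was 1.22, 1.88 and 0.90.

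Its relative Thbs2, the gene of thrombospondin 2, read 42.6, 45.2 and 39.8 in LSC GFP+ cells and 96.3, 22.8 and 47.4 in LSC GFP- cells. The LSC GFP- arrays lay on both sides of the LSC GFP+ arrays. The log2 difference was -0.23, with a 95% interval of -1.31 to 0.86, which leaves room for differences in either direction.

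Cyr61 read 4239, 4699 and 4802 in LSC GFP+ cells and 2664, 2299 and 2585 in LSC GFP- cells. It had tight replicates in both populations, at 3.40 ± 0.15 and 2.62 ± 0.12 (SD, n = 3 each) on the log2 scale, and the populations did not overlap. It was 1.72-fold higher in LSC GFP+ cells, with a 95% interval of 1.27 to 2.33, a log2 difference of 0.78 and a standard error of 0.19. Within replicates the log2 difference was 0.68, 0.75 and 0.92.

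Ctgf, of the same CCN family, read 287, 525 and 319 in LSC GFP+ cells and 429, 319 and 311 in LSC GFP- cells. The populations overlapped, and the log2 difference was -0.03, with a 95% interval of -0.59 to 0.54. Its sign turned to 0.04 when arrays were scaled by their median. The lower end of the interval of Cyr61, 0.34, lies within that of Ctgf, and the difference between the CCN genes was not tested.

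Tnc and Spp1 encode tenascin C and osteopontin, a glycoprotein and a phosphoprotein that cells bind through integrins. The brighter Tnc probe read 33.9, 33.4 and 62.6 in LSC GFP+ cells and 52.8, 53.7 and 21.6 in LSC GFP- cells. The direction changed with the replicate number, with log2 differences of -0.63, -0.97 and 1.56, and the mean difference was -0.01 with a 95% interval of -1.04 to 1.01. That sign turned under quantile normalization (0.10) and median scaling (0.05). The dimmer Tnc probe was well above background on LSC GFP+ replicate 3 only and gave no fold. Spp1 stood well above background nowhere, with signals between 4.13 and 7.14.

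**Figure D2:**
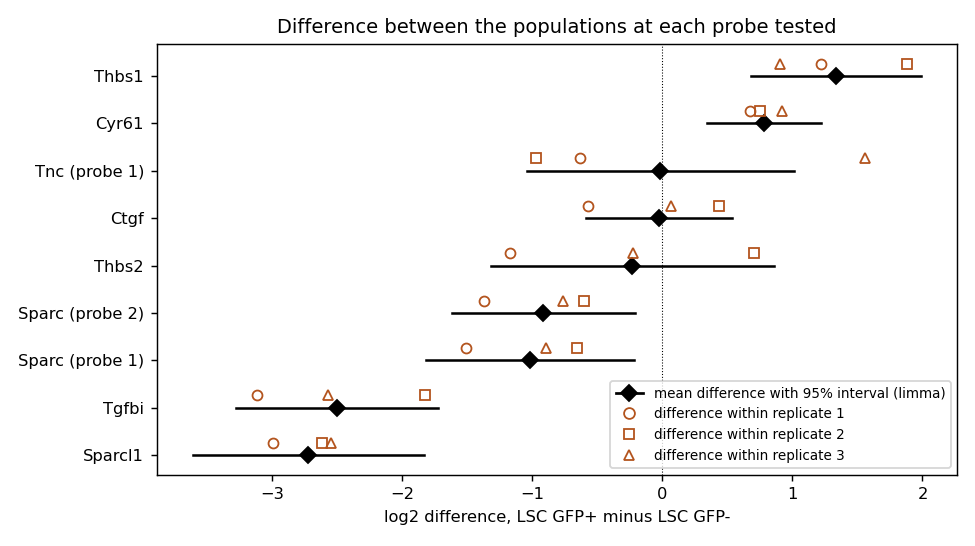
Log2 difference, LSC GFP+ minus LSC GFP-, at the 9 probes tested of the 8 genes tested, with diamonds for the mean difference, lines for its 95% interval from limma and open symbols for the difference within each replicate number. Sparcl1 lies at -2.72 and Tgfbi at -2.50, Thbs1 at 1.34 and Cyr61 at 0.78, and the intervals of Tnc, Ctgf and Thbs2 span 0.

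A gene was tested where 1 population or both had it well above background on all 3 arrays, which held for 8 of the 10 genes and not for Postn and Spp1. Of these 8, Thbs1 and Cyr61 were past an unadjusted p of 0.05 on the higher side, where 3.38% of all probes were, and Sparcl1, Tgfbi and Sparc on the lower side, where 4.53% were. Thbs1 and Cyr61 lay above without overlap, as did 6.61% of all probes, and Sparcl1 and Tgfbi below, as did 5.65%. The members were chosen with this contrast known, so nothing is read from these counts. Sparc was not among them when replicate 1 or 2 of LSC GFP+ or replicate 1 or 3 of LSC GFP- was left out, nor by the methods' t-test, which gave 4 members. The same 5 members passed in the fit with the replicate block. The median difference of the 8 members was -0.13, against -0.004 over all probes tested.

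RefSeq promoter windows of the mouse assembly GRCm38.p6 were at hand for 7 of the 10 genes, in 10 windows. The window of Cyr61, higher in LSC GFP+ cells, and that of Tgfbi, lower in them, are shown as the 250 bases before the start, at chr3:145649986-145650235 on the minus strand and chr13:56609336-56609585 on the plus strand, with matched motif letters in capitals.
Cyr61: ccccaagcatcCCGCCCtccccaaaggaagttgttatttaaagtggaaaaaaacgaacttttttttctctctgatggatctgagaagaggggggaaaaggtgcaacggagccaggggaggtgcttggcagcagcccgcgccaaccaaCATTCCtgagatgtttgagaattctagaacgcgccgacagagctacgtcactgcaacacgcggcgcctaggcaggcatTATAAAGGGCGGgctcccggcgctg
Tgfbi: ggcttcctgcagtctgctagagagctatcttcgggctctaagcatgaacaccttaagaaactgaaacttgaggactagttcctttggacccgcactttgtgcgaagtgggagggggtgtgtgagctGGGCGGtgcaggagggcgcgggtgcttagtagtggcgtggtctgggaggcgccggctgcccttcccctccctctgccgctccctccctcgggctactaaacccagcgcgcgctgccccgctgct
Both strands were searched for CATTCC (bound by TEAD factors), TGACTCA (AP-1), the CArG box of serum response factor, TATAAA and GGGCGG. The Cyr61 window held CATTCC at 103 to 98 bases before the start, TATAAA at 25 to 20, directly followed by GGGCGG at 19 to 14, and GGGCGG on the other strand at 239 to 234. The Tgfbi window held GGGCGG at 124 to 119 and no other of these motifs. Over all 32851 windows, 12.6% held CATTCC, 4.46% TGACTCA, 1.47% a CArG box, 12.4% TATAAA and 32.7% GGGCGG. The window of Sparc, at chr11:55420081-55420330, held none of the 5. A match describes the letters of the window and no binding was measured.

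Markers of stromal and smooth muscle cells were also lower in LSC GFP+ cells and are given beside the members because matricellular genes are commonly expressed there. Over 12 smooth muscle and pericyte markers, the summed signal in multiples of the 75th percentile was 12.0, 8.55 and 11.9 on the LSC GFP+ arrays and 43.6, 22.8 and 27.4 on the LSC GFP- arrays, without overlap. Of the 11 tested, 8 were lower at an unadjusted p under 0.05 in limma and none higher, with a median difference of -1.51. Over all probes tested, 4.53% were lower and 3.38% higher at that threshold. Acta2 (smooth muscle actin) had a log2 difference of -2.13, Myh11 (smooth muscle myosin) one of -2.01, and Lmod1 was not well above background in any sample. Over 12 stromal fibroblast markers the sums were 26.1, 27.8 and 33.0 against 67.3, 25.7 and 41.6, which overlapped. At the same threshold, 7 of these 12 were lower and 2 were higher, Dcn and Fbln1, with a median difference of -1.04. Dcn and Fbln1 were the brightest of the list in LSC GFP+ cells and weigh most in those sums. Their mean log2 levels were 3.70 and 2.64 in LSC GFP+ cells against 2.51 and 1.74 in LSC GFP- cells. Sums without them were not made, so the overlap does not show similar levels of the other markers. Among the lower ones were Mfap5 at -1.20 and Pdgfra, for which 1 of the 3 LSC GFP+ arrays was not well above background.

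On the LSC GFP- arrays both sums were highest on replicate 1 and lowest on replicate 2, and so were Sparcl1, Tgfbi, Postn, Thbs2, Thbs1 and Cyr61. Thbs1 and Cyr61 shared that order although they were higher in LSC GFP+ cells. Sparc and Spp1 were highest on replicate 3, and Ctgf and the brighter Tnc probe were lowest on it. The share of all probes with the order of the sums was not counted. On the LSC GFP+ arrays the stromal fibroblast sum was highest on replicate 3 and lowest on replicate 1. There the smooth muscle sum and Sparcl1 were highest on replicate 1 and lowest on replicate 2, and Tgfbi was highest on replicate 3. The sort was for Sca-1 and CD49f in both populations, and the part of stromal or smooth muscle cells in the differences of the members was not tested.

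Higher and lower stand here for an unadjusted p under 0.05 in limma, which 3.38% and 4.53% of all probes passed. Of the 10 basal epithelial markers, read at their brightest probes, 6 were higher in LSC GFP+ cells and none was lower. Their summed signals were 231 to 248 against 173 to 183. Trp63 gave 0.11 at its brightest probe and -0.73 to 0.62 at its other probes tested, and Dst gave 0.07 and -0.72. The 10 luminal markers had sums of 198 to 276 against 209 to 290, with 2 higher and 1 lower. By sign alone, 3 luminal differences were positive and 7 negative. Endothelial sums were 7.15 to 8.07 against 7.46 to 9.44, most of it Kdr at a mean log2 level of 2.52 and 2.50. Vwf was lower among 9 tested. Of the 12 endothelial genes, 7 were well above background on all 6 arrays, whereas Cdh5, a defining endothelial gene, was so on 1 array. Immune sums were 238 to 318 against 251 to 297, most of it Itgam at a mean log2 level of 7.94 and 7.97, with none of 10 past the threshold, Ptprc (CD45) at -1.48 and -1.43 on average, and Lyz2 and Laptm5 not well above background in any sample. Glial and neuronal sums were 88.2 to 139 against 98.1 to 185, most of it Elavl4 at a mean log2 level of 6.66 and 6.76. All 9 glial and neuronal genes tested had a difference under 0, with a median of -1.30, and Ncam1 was the 1 past the threshold, against 7 in the fit with the replicate block and 7 without LSC GFP- replicate 2. Erythroid sums were 1.03 to 4.67 against 1.56 to 3.49, with none of 3 past the threshold. The part of these cells in the result was not tested.

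**Figure D3:**
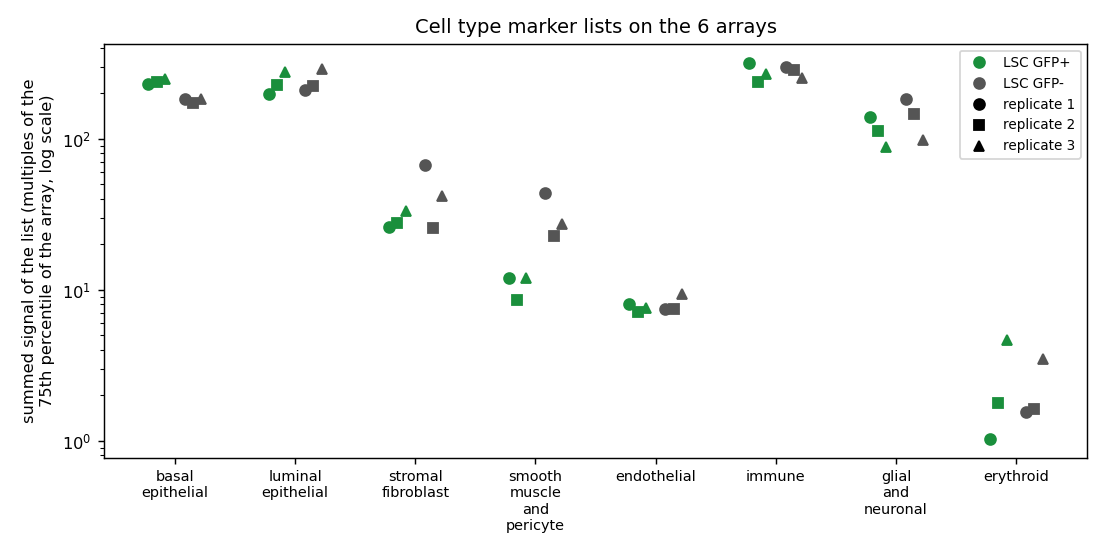
Summed signal of each marker list on each array, in multiples of the 75th percentile of the array and on a log axis, with 1 point per array and a symbol for each replicate number. The smooth muscle and pericyte sums are 8.55 to 12.0 in LSC GFP+ cells and 22.8 to 43.6 in LSC GFP- cells, and the immune and endothelial sums overlap.

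Sparcl1 and Tgfbi resembled each other across the arrays. Likeness was measured as the root mean square distance, in log2 units over the 6 arrays, between profiles centred on their own mean, among 13815 genes well above background on all 6. The nearest to Sparcl1 was Tgfbi at 0.285, followed by Col1a1 (a chain of type I collagen) at 0.323, Acta2 at 0.326, Col1a2 at 0.330 and Ddr2 (a collagen receptor) at 0.339. The nearest to Tgfbi were Col1a1 at 0.277, Sparcl1 at 0.285, Ddr2 at 0.300, Pcp4 at 0.302 and Col1a2 at 0.304. A difference between the populations draws any such genes together, so these distances are a description over 6 arrays.

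**Figure D4:**
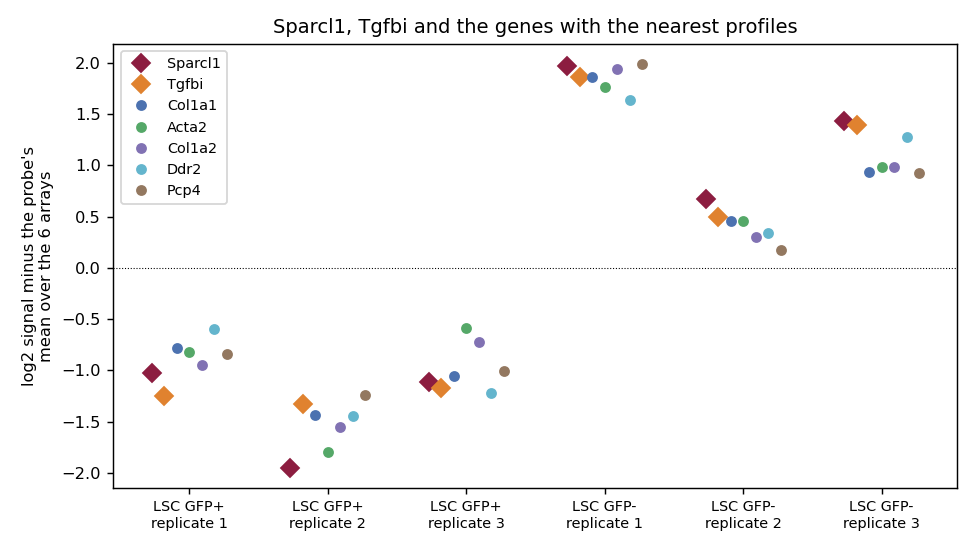
Log2 signal of Sparcl1, Tgfbi and the genes nearest to them, each minus its own mean over the 6 arrays, with 1 point per gene and array. Within LSC GFP- cells all 7 genes are highest on replicate 1 and lowest on replicate 2, and on every LSC GFP+ array all lie under their mean.

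Further genes of matricellular biology were grouped into relatives, receptors, the TGF-beta axis, the YAP and TEAD axis and matrix partners. Of these 102 genes, 86 were tested and 27 were past an unadjusted p of 0.05 in limma (22 by the methods' t-test), and none passed after adjustment over all probes, the smallest adjusted p being 0.099. The count was 14 without LSC GFP+ replicate 2 and 16 without LSC GFP- replicate 3. In what follows, higher and lower stand for an unadjusted p under 0.05, beside the 3.38% and 4.53% of all probes given above.

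Of 21 relatives of the members, 12 were tested, and LSC GFP+ cells had 3 of them higher and 2 lower, with a median difference of -0.44. Smoc2, which encodes a secreted protein of the SPARC family, was higher by 1.33 on the log2 scale, with a standard error of 0.25. Its levels were 2.65 ± 0.16 against 1.31 ± 0.39 (SD, n = 3 each). Spock1 (testican 1), of the same family, was higher by 1.63, and its other probe tested gave 0.39. Ibsp, which encodes bone sialoprotein, a relative of osteopontin, was not well above background on any LSC GFP- array and was at least 1.33-fold higher in LSC GFP+ cells. It entered the test through the LSC GFP+ arrays alone, so its call rests on dim LSC GFP- values, and it missed the threshold with normexp. Fstl1 (follistatin-like 1) was lower, with a difference of -0.60, and so was Wisp1, a CCN family gene, with -0.92. Neither Fstl1 nor Wisp1 passed with median scaling or the methods' t-test, and only Smoc2, Spock1 and Ibsp, a count of 3, did once replicate 2 of LSC GFP+ or replicate 1 or 3 of LSC GFP- was left out. In the fit with the replicate block Wisp1 was lost, and Thbs3 and Tnr were lower besides Fstl1.

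Of 22 receptor genes, 19 were tested, 7 were higher and 1 was lower in LSC GFP+ cells, with a median difference of 0.46. The higher ones were the integrin subunits Itgav (0.60), Itgb5 (0.63), Itgb8 (0.62), Itga3 (0.60) and Itga9 (0.49), the osteopontin and hyaluronan receptor Cd44 (0.61) and the heparan sulfate proteoglycan Sdc1 (0.64). Integrin αv pairs with β5 and β8, and integrin α9β1 binds tenascin C and osteopontin. The other integrin β genes of the list did not pass, with Itgb1 at 0.34, Itgb4 at 0.13, Itgb3 at -0.20 and Itgb6 at -0.55. Itgb3 and Itgb6 gave -1.12 and -0.96 at their other probes, and Itgb6 was lower in the fit with the replicate block. The other 3 probes of Cd44 gave 0.92 to 1.48. The lower gene, Ddr2, had the largest difference of the list, -2.17 with a standard error of 0.37, at -2.97 ± 0.44 against -0.80 ± 0.67 (SD, n = 3 each), and its other probe gave -1.33. Cd47, a thrombospondin receptor, had a difference of -0.59 and missed the threshold, and Cd36 was well above background on 1 array only. The receptor count of 8 was 3 without LSC GFP+ replicate 2, 5 without LSC GFP- replicate 2 and 4 without LSC GFP- replicate 3, and 12 with the replicate block, 9 of them higher.

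Of 22 genes of the TGF-beta axis, 20 were tested, 2 were higher and 1 lower, with a median difference of 0.15. Of the higher ones, Skil (SnoN), a repressor of SMAD signalling that TGF-beta induces, was higher by 0.68, and by 1.16 at its other probe. The ligand gene Tgfb3 was lower, with a difference of -0.58, while Tgfb1 and Tgfb2 gave 0.17 and -0.28 and did not pass. None of the 20 passed without LSC GFP+ replicate 2, and 1 did without LSC GFP+ replicate 1 or LSC GFP- replicate 3. Tgfb3 missed the threshold with median scaling, quantile normalization, the methods' t-test and no filter on dim probes. It also missed it without LSC GFP+ replicate 1 or 2 and without LSC GFP- replicate 1 or 3.

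Of 17 genes of the YAP and TEAD axis, 16 were tested, and Ajuba, a LIM protein that restrains LATS kinases, was the gene that passed, higher by 0.80 with a standard error of 0.26. The median difference was 0.15, and Yap1 and Wwtr1 (TAZ) gave 0.20 and -0.32. Ankrd1, a YAP and TEAD target like Cyr61 and Ctgf, was well above background on 1 array only. With the replicate block 2 genes passed, Ajuba and Tead4.

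Of 20 partners in the matrix, 19 were tested, 2 were higher and 8 lower, with a median difference of -0.48. The lower ones included the fibrillar collagen genes Col1a1 (-2.18), Col1a2 (-2.15) and Col3a1 (-1.97), Col6a1 of collagen VI (-1.96), and Lox, the enzyme that crosslinks collagen (-1.67), which 2 of 3 LSC GFP+ arrays showed well above background. Bgn (biglycan), Lum (lumican) and Plau (urokinase) were also lower, with differences of -1.43, -1.21 and -0.88, and the populations overlapped for Bgn and Plau. These 3 genes missed the threshold by the methods' t-test and when replicate 2 of LSC GFP+ or replicate 3 of LSC GFP- was left out, with a count of 7 without either array. Vcan (versican) was higher by 1.27 with a standard error of 0.20, at 5.75 ± 0.15 against 4.48 ± 0.20 (SD, n = 3 each), and Dcn (decorin) was higher by 1.19. The other probes of Vcan gave 0.44 to 1.32. The gene of fibronectin, Fn1, gave -0.38 and did not pass, although its populations did not overlap and it was lower with normexp, the methods' t-test and the replicate block. With the block 3 partners were higher and 10 lower. This list shares 5 genes with the stromal fibroblast markers, so the lists are not separate readouts.

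**Figure D5:**
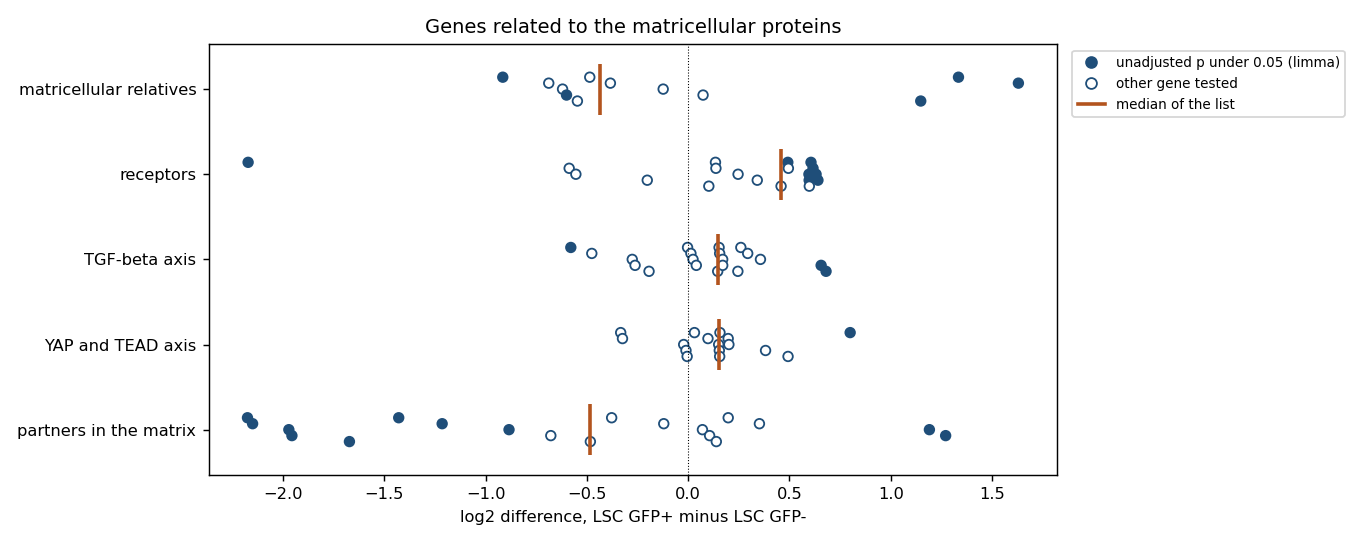
Log2 difference, LSC GFP+ minus LSC GFP-, of each tested gene in the 5 lists, with filled points for an unadjusted p under 0.05 in limma and a bar for the median of the list. The medians are 0.46 for receptors and -0.48 for partners in the matrix, and Ddr2 and 4 collagen genes lie between -2.18 and -1.96.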

How the data were processed

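RNA of 3 independent LSC GFP+ and 3 independent LSC GFP- samples was amplified, labeled as cDNA with Cy3 and measured on 6 single-colour SurePrint G3 Mouse arrays. The deposited intensity of each spot, on the linear scale, was made by Agilent Feature Extraction 11.0.1.1 per the file headers, whereas the submitters' processing notes name 10.7.3.1. That software had already subtracted the background and detrended each array, and had not normalized the arrays to each other. The deposited table of the whole series holds the same intensity values rounded and served as an alternative.

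Outlier spots (123 to 154 per array) were dropped, log2 signals were expressed relative to the array's own 75th percentile, and a probe's spots were averaged. A gene was represented by its brightest probe. Probes that 1 population or both had well above background on all 3 arrays were fitted in limma 3.58.1 (lmFit, then eBayes; R 4.3.3) with a two-sided test and Benjamini-Hochberg adjustment, and the script was tested on simulated data. The number of arrays limits the precision, as does the signal over background at dim probes, and an exact permutation test of 3 against 3 cannot go under 0.1. Probes were matched to RefSeq symbols (GRCm38.p6, used for names and promoter windows) for 26582 probes.

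Replicate numbers were checked for pairing. Deviations from the population means correlated at 0.43, 0.28 and 0.67 for replicates 1, 2 and 3. LSC GFP+ replicate 1 correlated with LSC GFP- replicate 2 at 0.22, and the other unlike numbers gave negative values. The numbers, which come from the labels, may therefore pair the samples. The main fit left the pairing out, so the standard errors, intervals and calls given are unpaired unless the replicate block is named. A fit with that block was run as an alternative. Further alternatives were normexp with an offset of 50, quantile normalization, median scaling, a looser and a stricter filter on dim probes, Student's t-test as the methods name it (the methods' t-test), an intensity trend, averaging a gene's probes, and leaving out each array.

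The members, the lists of related genes and the marker lists were chosen with earlier results of these data known. All members are named, and from each list every gene past an unadjusted p of 0.05 may be named besides up to 4 of the brightest, and for Sparcl1 and Tgfbi the 5 genes nearest in profile. Cd47, Cd36, Itgb3, Itgb4, Itgb6, Tgfb1, Tgfb2, Wwtr1, Yap1, Ankrd1, Tead4, Dst, Cdh5, Lmod1, Lyz2, Laptm5, Ly6a, Inpp5d, Thbs3 and Tnr fall outside that rule and were named after their values were seen. A gene of the TGF-beta list is counted there but not reported here.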

Additional observations from a re-analysis of the deposited data

How the results depend on the processing

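Sparcl1, Tgfbi, Thbs1, Cyr61 and Sparc kept their direction under every alternative run, which describes the values and is no test of genes chosen on this contrast. The difference of Tgfbi was -1.58 with normexp against -2.50. As each array was left out in turn, the difference ranged from -3.06 to -2.41 for Sparcl1, from -2.88 to -2.20 for Tgfbi, from 1.14 to 1.55 for Thbs1 and from 0.71 to 0.86 for Cyr61. Thbs2 ranged from -0.75 to 0.30, Tnc from -0.47 to 0.24 and Ctgf from -0.19 to 0.14, and none of these was past the threshold in the main comparison. Over the same left-out arrays, members past the threshold numbered 4 to 5, related genes 14 to 30 and all probes 2077 to 4049. Without a filter on dim probes 6 members were past it. The fit with the replicate block moved the count of all probes from 2925 to 5480 (0 after adjustment) and of related genes from 27 to 37, moved the counts from 1 to 2 for the YAP and TEAD axis and endothelial markers and from 1 to 7 for glial and neuronal markers, and changed no call among the members. The causes were not tested. Dim probes such as Postn, Tnc and Spp1 are limited by their signal over background.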
